A study of Homo sapiens with 24 samples.

Results

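The transcripts described are 10 noncoding host genes of small nucleolar RNAs (snoRNAs): GAS5, ZFAS1, SNHG1, SNHG3, SNHG5, SNHG6, SNHG8, SNHG12, SNHG15 and SNHG16. They were chosen by name as well-known members of this class, with earlier results of these data known. All 10 have a row among the 58676 gene rows that were read. RNA-seq was done in cells of the human liver cancer line HepG2 that had received siRNA against IGF2BP1, IGF2BP2 or IGF2BP3 (siIGF2BP1, siIGF2BP2 and siIGF2BP3) or control siRNA (siControl). Cells of each of these 4 conditions received actinomycin D, which blocks transcription, at 5 µg/ml for 0, 3 or 6 h, giving 12 groups of 2 libraries. The IGF2BP proteins bind RNA, and the time course asks how fast each transcript is lost with and without each of them. By the study's methods each transfected plate was divided into 3 plates, one for each time, so the times of a condition can share a transfection. Beyond the replicate number, nothing in the labels says that replicates came from separate cultures, so p-values measure the spread between these libraries, which may be technical.

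A snoRNA host gene carries snoRNAs in its introns. After splicing, the introns are trimmed to mature snoRNAs, which guide chemical modification of ribosomal RNA, while the joined exons leave as a polyadenylated transcript. Many noncoding host transcripts begin, like mRNAs for ribosomal proteins, with a C followed by a run of pyrimidines (a 5′ terminal oligopyrimidine, or TOP, start), are taken up by ribosomes on short reading frames, and are removed by nonsense-mediated decay (NMD), the pathway that clears transcripts with an early stop codon. GAS5 (growth arrest specific 5) was first found as a transcript that builds up in growth-arrested cells, and ZFAS1 is transcribed from the ZNFX1 promoter region in the opposite direction.

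The start windows of these genes are shown because the pyrimidine run is the sequence feature that the class is known for. Each line gives 10 bases before and 20 bases from a start in RefSeq on GRCh38.p14, 5′ to 3′ on the strand of the gene. Capitals mark a C followed by at least 4 further C or T bases, beginning within 5 bases of the start on either side.
ZFAS1: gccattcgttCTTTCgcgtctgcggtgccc
SNHG5: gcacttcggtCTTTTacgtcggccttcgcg
SNHG8: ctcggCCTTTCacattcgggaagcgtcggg
SNHG12: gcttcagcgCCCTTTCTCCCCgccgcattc
SNHG16: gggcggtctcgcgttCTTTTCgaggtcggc
SNHG1: gagattcgttctcatttttctactgctcgt
SNHG3: gtgagtttctgattctctaactgcgcatgc

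These windows lie at chr20:49278632-49278661 (ZFAS1, plus strand), chr6:85678714-85678743 (SNHG5, minus), chr4:118278752-118278781 (SNHG8, plus), chr1:28581854-28581883 (SNHG12, minus), chr17:76557754-76557783 (SNHG16, plus), chr11:62855866-62855895 (SNHG1, minus) and chr1:28505933-28505962 (SNHG3, plus). For GAS5 the RefSeq start held no such run, whereas the start shared by 50 of its 91 transcripts in GENCODE v44 (chr1:173867960-173867989, minus strand) did. Unlike the lines above, the GAS5 line begins at the start itself and holds 30 bases from it. A GENCODE start was looked up for GAS5 alone, not for the other members or for the promoters used as background.
GAS5: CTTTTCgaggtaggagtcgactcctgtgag

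Of the 8 members in the RefSeq promoter table, 5 held the run, compared with 6916 of 35116 promoters (19.7%) and with 15 of 21 ribosomal protein genes that also host snoRNAs. SNHG6 and SNHG15 were not in that table. A match is a description of the letters at an annotated start and does not show where transcription began in HepG2 cells.

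Sequencing gave 31843248 to 74252042 gene reads and 50889 to 119088 reads of ERCC spike-in RNA per library. Each targeted mRNA was lower in its own knockdown when averaged over the 3 time points: IGF2BP1 fell to 17.7%, IGF2BP2 to 22.9% and IGF2BP3 to 28.9% of siControl (edgeR adjusted p of 1.39e-47, 2.4e-41 and 3.85e-37). All 10 liver markers examined had reads in every library. Of 8 markers of blood, endothelial, connective, glial and muscle cells, PECAM1 (0.486 to 1.37 CPM, counts scaled to the library's total of gene reads) was the highest, and the sum of all 8 stayed between 0.625 and 1.62 CPM.

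Host transcripts other than SNHG15 were detected in every library. Together the 10 genes held 497.4 and 506.1 CPM in the siControl 0 h libraries, and 325.6 to 542.6 CPM over all 24 libraries. Per kilobase of the median annotated transcript, the siControl 0 h levels ran from SNHG6 (131.4 RPKM ± 0.3, SD, n = 2) through GAS5 (84.6 ± 0.735), SNHG5 (61.8 ± 2.07), SNHG16 (60.5 ± 0.374), SNHG1 (41.8 ± 1.33), SNHG8 (39.4 ± 0.477), ZFAS1 (33.2 ± 1.03) and SNHG12 (22.3 ± 0.458) to SNHG3 (15.4 ± 0.28). SNHG5 and SNHG16 overlapped, and every other pair of neighbours in this order was separate. The order depends on the length used, since with the length of all annotated exons joined SNHG6 stayed highest but SNHG16 came next and ZFAS1 was lowest. SNHG15 had 0 to 2 reads in every library. It failed the filter on low values, so it is listed here as near 0 with no fold change, and the tests cover the other 9 members. Part of the reads of SNHG3 (exons shared with RCC1 over 242 bases, 5.9% of its length), of SNHG5 (13.2% shared with other genes on its strand) and of ZFAS1 (378 bases, 4.5%) may be split with a neighbour, because the overlap setting of the counting is not given.

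The genes span chr1:173858559-173868882 (GAS5, ENSG00000234741.7), chr20:49278178-49299600 (ZFAS1, ENSG00000177410.12), chr11:62851978-62855953 (SNHG1, ENSG00000255717.6), chr1:28505980-28510892 (SNHG3, ENSG00000242125.3), chr6:85650491-85678932 (SNHG5, ENSG00000203875.11), chr8:66920561-66926398 (SNHG6, ENSG00000245910.8), chr4:118278703-118285316 (SNHG8, ENSG00000269893.6), chr1:28578538-28583132 (SNHG12, ENSG00000197989.14), chr7:44983019-44986961 (SNHG15, ENSG00000232956.8) and chr17:76557727-76670985 (SNHG16, ENSG00000163597.14), all on hg38 and all annotated as long noncoding RNA by GENCODE v44.

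After actinomycin D some host transcripts were lost rapidly, some slowly, and a pair kept most of their level. In siControl cells 7 of the 9 fell over 6 h (edgeR slope on time, scaled to ERCC reads, adjusted p under the 0.05 threshold), against 80.3% of all genes tested, and their order was SNHG12, SNHG3, ZFAS1, GAS5, SNHG1, SNHG8 and SNHG16. SNHG5 and SNHG6 did not pass the test. The median half-lifetime of the 9 members was 4.09 h, compared with 7.11 h over 12178 genes.

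SNHG12, a host transcript of SNORA and SNORD RNAs on chromosome 1, was lost the fastest. Taking the mean of the 0 h libraries as 100%, 8.48% and 10.3% of SNHG12 were left in the siControl libraries at 3 h and 5.87% and 5.59% at 6 h. Its half-lifetime was 1.1 h (1.04 to 1.15 h over the 8 choices of 1 library per time point), and the fitted change over 6 h was -4.24 on the log2 scale (SE 0.624, adjusted p = 2.1e-06). SNHG3, host of the SNORA73 RNAs, followed with 19.4% and 17.2% left at 3 h and 9.48% and 8.05% at 6 h. This gave a half-lifetime of 1.43 h (1.33 to 1.54 h) and a change of -3.55 (SE 0.395, adjusted p = 3.55e-08). By decay rate these transcripts stood at the 98.7th and 96th percentile of the genes measured.

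ZFAS1, host of the SNORD12 RNAs, and GAS5 formed the next step. ZFAS1 had 30.75% and 29.01% left at 3 h and 24.5% and 28.8% at 6 h, a half-lifetime of 2.23 h (2.07 to 2.4 h). GAS5 had 44.4% and 44.2% left at 3 h and 39.0% and 39.7% at 6 h, a half-lifetime of 3.25 h (3.03 to 3.52 h). The fitted changes over 6 h were -1.92 (SE 0.432, adjusted p = 0.000338) for ZFAS1 and -1.35 (SE 0.308, adjusted p = 0.000397) for GAS5. In both, the libraries at 6 h lay close to those at 3 h.

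SNHG1, SNHG8 and SNHG16 were lost more slowly. SNHG1, which hosts several SNORD RNAs, had 56.8% and 53.7% left at 3 h and 43.9% and 41.9% at 6 h (half-lifetime 4.09 h, range 3.71 to 4.58 h). SNHG8 had 53.7% and 57.1% at 3 h and 59.3% and 56.4% at 6 h, so that the libraries of both times overlapped (half-lifetime 4.81 h, range 4.18 to 5.68 h). SNHG16 had 78.6% and 73.9% at 3 h and 68.4% and 63.5% at 6 h (half-lifetime 8.67 h, range 6.71 to 12.4 h). The fitted change was -1.22 for SNHG1, -0.79 for SNHG8 and -0.60 for SNHG16 (adjusted p of 3.94e-06, 0.00634 and 0.0001). The call for SNHG8 was lost without siControl 0 h replicate 1 (-0.60, adjusted p = 0.0682).

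SNHG5 and SNHG6 kept most of their level. SNHG5 had 92.5% and 95.6% left at 3 h and 84.7% and 88.0% at 6 h, and its change over 6 h was -0.21 (95% interval -0.45 to 0.02, adjusted p = 0.086). SNHG6 had 95.46% and 94.96% left at 3 h and 95.4% and 94.8% at 6 h, and its change was -0.07 (interval -0.29 to 0.15, adjusted p = 0.527). Half-lifetimes this long are poorly set by a 6 h course: the value for SNHG5 was 30.9 h with a range of 18.5 to 97.4 h, and SNHG6 showed no fall in 4 of the 8 choices of libraries. The siControl 0 h libraries themselves differed in ERCC scale, with 106.8% and 93.2% of their mean for SNHG6, which is a wider gap than that between 0 h and 6 h for this gene.

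**Figure D1:**
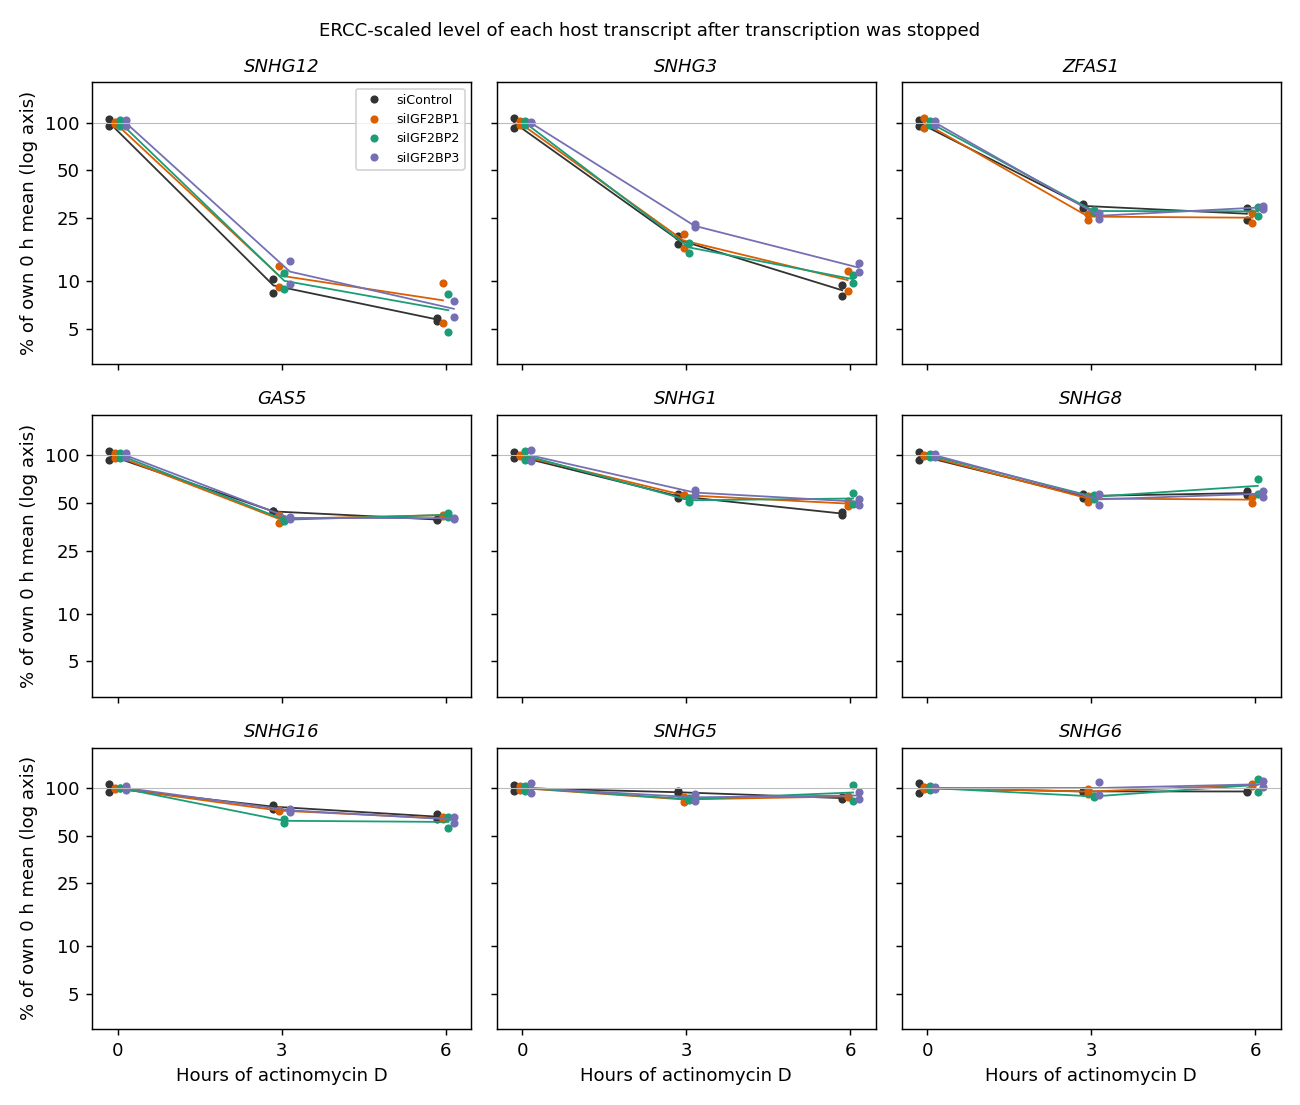
Level of each of the 9 tested host transcripts (y axis, log scale, percent of the mean of the 0 h libraries of the same condition, after scaling to ERCC reads) against hours of actinomycin D (x axis). Points are single libraries, lines join the means of 2 libraries, colours mark the 4 conditions with small sideways offsets, and panels run from SNHG12, with 5.73% left at 6 h in siControl, to SNHG6, with 95.1%.

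For most members loss was faster in the first 3 h than in the second 3 h. The change from 3 to 6 h minus the change from 0 to 3 h, averaged over the 4 conditions, was above 0 in all 9 members tested (adjusted p under the threshold), compared with 25.5% of all genes called in that direction. The median of the members was 0.987 on the log2 scale against 0.0745 over all genes. The difference was greatest for SNHG12 (2.62, SE 0.148), ZFAS1 (1.87, SE 0.119), SNHG3 (1.57, SE 0.116) and GAS5 (1.29, SE 0.0862), followed by SNHG8 (0.99), SNHG1 (0.68) and SNHG16 (0.36). It was small for SNHG5 (0.22, adjusted p = 0.0175) and SNHG6 (0.20, adjusted p = 0.0369). These 2 calls were lost with TMM scaling, which sets levels relative to the average transcript (0.05 and 0.03). They were also lost when some single libraries were left out (6 of 24 choices for SNHG5, 13 of 24 for SNHG6), while the other 7 were called in every one of the 24. In siControl alone SNHG5 had a half-lifetime of 33.9 h early and 24.3 h late. Mean SNHG6 rose from 3 to 6 h in siIGF2BP1 (94.86% to 104.6%), siIGF2BP2 (88.53% to 104.7%) and siIGF2BP3 (100.0% to 105.8%).

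In siControl cells alone, 7 members fell from 0 to 3 h, as did 61.3% of all genes, but only SNHG3, SNHG12, SNHG1 and SNHG16 passed the test for a further fall from 3 to 6 h, as did 64.9% of all genes. From 0 to 3 h the log2 change was -3.40 for SNHG12, -2.45 for SNHG3, -1.74 for ZFAS1, -1.17 for GAS5, -0.86 for SNHG1, -0.85 for SNHG8 and -0.39 for SNHG16. From 3 to 6 h it was -0.72 for SNHG12 (adjusted p = 0.000168), -1.06 for SNHG3 (1.92e-13), -0.36 for SNHG1 (0.000455) and -0.21 for SNHG16 (0.0232). The late change of ZFAS1 was -0.16 (interval -0.46 to 0.13), that of GAS5 was -0.17 (interval -0.38 to 0.04) and that of SNHG8 was 0.06 (interval -0.21 to 0.33). Expressed as half-lifetimes, SNHG12 went from 0.879 h in the first interval to 4.2 h in the second, ZFAS1 from 1.72 to 18.2 h and GAS5 from 2.55 to 17.6 h. The late call of SNHG16 was lost without siControl 3 h replicate 1 and without siControl 6 h replicate 2 (-0.165 and -0.157).

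**Figure D2:**
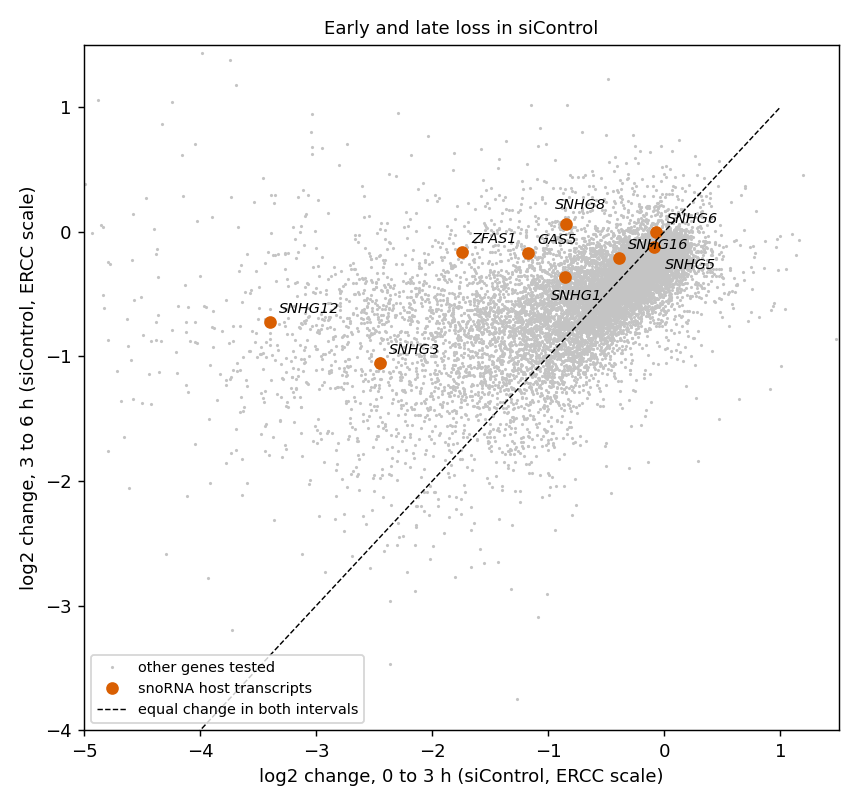
Log2 change from 3 to 6 h (y axis) against log2 change from 0 to 3 h (x axis) in siControl on the ERCC scale, with the 9 host transcripts in orange and the other genes tested in grey; a few genes lie outside the axes. Points above the dashed line lost less in the second interval, as SNHG12, ZFAS1, SNHG3 and GAS5 did by the widest margins among the members.

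The snoRNAs inside these genes could be followed only in part. The copy of GENCODE v44 used here places 24 snoRNA genes inside 9 of the members, of which 19 had 0 reads in every library. It holds 0 inside GAS5, so any snoRNAs of that host could not be followed. All 19 lie within annotated exons of their host, and 4 of the 5 with reads have no base in a host exon. How reads in both a snoRNA and a host exon were assigned is not given, and the libraries were made from polyadenylated RNA. Why the 19 had no reads was not tested. In the 5 with reads, counts were far lower after actinomycin D than before. SNORD12C in ZFAS1 had 846 reads over the 8 libraries at 0 h, 40 at 3 h and 22 at 6 h. SNORA73B in SNHG3 had 657, 74 and 33 reads, SNORD99 in SNHG12 had 200, 9 and 5, and SNORD1B in SNHG16 had 61, 1 and 4. SNORD12B, which overlaps an annotated exon of ZFAS1, kept more, with 419, 78 and 77 reads. Whether these reads come from snoRNA or from unspliced host RNA was not tested.

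The order of decay in the knockdowns was close to that in siControl, with SNHG1 and SNHG8 changing places in siIGF2BP1 and siIGF2BP3. Again 7 members fell in siIGF2BP1, siIGF2BP2 and siIGF2BP3 (69.1%, 71.3% and 67.2% of all genes fell), namely those that fell in siControl, and SNHG5 and SNHG6 did not pass. SNHG12 half-lifetimes were 1.19, 1.14 and 1.18 h in the 3 knockdowns, those of SNHG3 were 1.46, 1.41 and 1.63 h, and those of ZFAS1 were 2.02, 2.16 and 2.12 h. GAS5 gave 3.06, 3.04 and 3.05 h, and SNHG1 gave 4.48, 4.31 and 4.75 h. SNHG8 gave 4.39, 5.06 and 4.54 h, and SNHG16 gave 7.57, 5.75 and 7.51 h. The median of the members was 4.39, 4.31 and 4.54 h, against 8.76, 7.46 and 9.07 h over all genes. In siIGF2BP2 the range for SNHG16 (5.19 to 6.4 h) did not overlap that in siControl, and in siIGF2BP3 the range for SNHG3 (1.59 to 1.67 h) lay above that in siControl. Neither difference passed the test of the slopes. SNHG8 in siIGF2BP2 was called lower with all libraries (-0.64, adjusted p = 0.025), but not with any 1 of 3 siIGF2BP2 libraries left out, which were 0 h replicate 1 (-0.54), 0 h replicate 2 (-0.48) and 6 h replicate 1 (-0.64). The call for SNHG8 in siIGF2BP3 (-0.81) was likewise lost without siIGF2BP3 0 h replicate 2 (-0.66).

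No member passed the test for a change of decay in a knockdown. By edgeR, 0 of 9 slopes differed from siControl in siIGF2BP1, siIGF2BP2 or siIGF2BP3, where 0.0152%, 0.0% and 0.0228% of all genes were called. At an unadjusted p under 0.05 there were also 0 members, against 10.9%, 6.82% and 16.1% of genes. DESeq2 called 0 members and 0.0609%, 0.0457% and 0.19% of genes. The differences over 6 h ranged from -0.14 (SNHG8 in siIGF2BP1) to 0.47 (SNHG3 in siIGF2BP3) on the log2 scale. Member medians were 0.0845, 0.139 and 0.118 beside all-gene medians of 0.187, 0.171 and 0.218, where a positive value is slower loss in the knockdown. The intervals were narrow for slow transcripts, as for SNHG16 (-0.40 to 0.32, -0.47 to 0.25 and -0.42 to 0.30 in siIGF2BP1, siIGF2BP2 and siIGF2BP3) and SNHG6 (-0.17 to 0.44, -0.17 to 0.44 and -0.16 to 0.46). They were wide for the fastest, as for SNHG12 (-1.49 to 2.19, -1.60 to 1.98 and -1.66 to 2.02), whose loss did not follow a straight line on the log scale. Changes within these intervals could not be told from 0 by this fit, and larger ones could also be missed. In simulated counts the test in siIGF2BP1 recovered 7.4% of log2 differences of 0.5 over 6 h, 39.4% of 1 and 80.3% of 2. The changed genes there were drawn at random from all genes tested and decayed along a straight line. These shares therefore need not hold for the members. The lack of calls does not show that decay was unchanged.

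**Figure D3:**
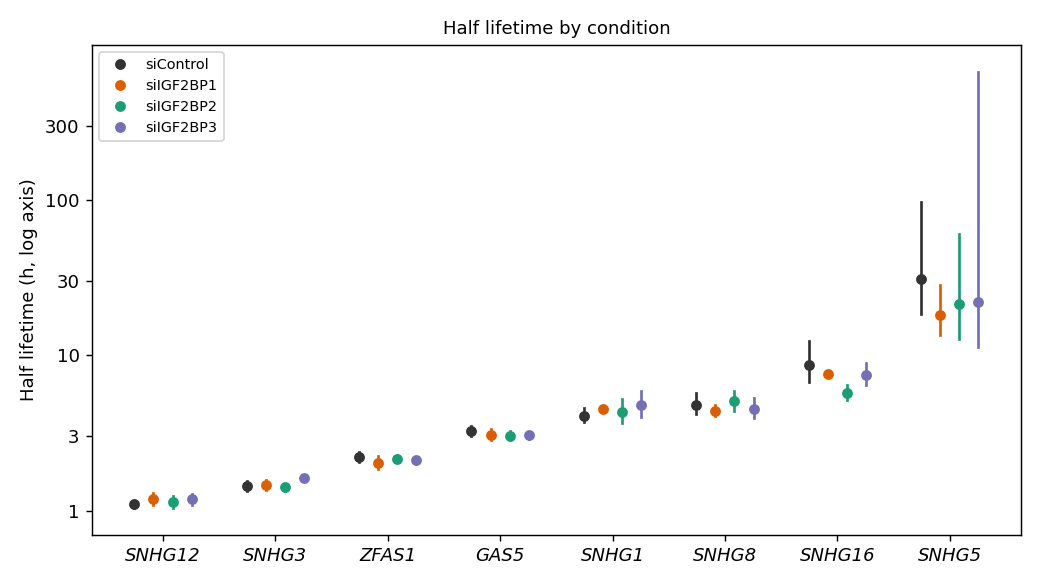
Half-lifetime (y axis, hours, log scale) of 8 host transcripts (x axis) in each condition; points use the means of both libraries and bars span the lowest to highest of the 8 choices of 1 library per time point. SNHG6 is left out because 4 of its 8 choices in siControl showed no fall; the order from SNHG12 at 1.1 h to SNHG5 at 30.9 h in siControl is kept by SNHG12, SNHG3, ZFAS1 and GAS5 in all 4 conditions.

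Levels averaged over the 3 time points differed from siControl. Such an average also takes in loss during actinomycin D, so it is not separate from decay. At 0 h alone 0, 1 and 1 members were called in siIGF2BP1, siIGF2BP2 and siIGF2BP3, beside 15.6%, 11.0% and 8.98% of all genes. On average with TMM scaling 8, 2 and 3 members were called, beside 5185, 4363 and 4204 of 13136 genes. With ERCC scaling 4, 8 and 7 members were called, beside 4084, 6307 and 7203 genes. The knockdown with the most members called thus depended on the scale, and the number of all genes called moved with it. Averaged over the 3 time points and scaled by TMM, 8 of the 9 members were lower in siIGF2BP1 than in siControl and 0 were higher, where 18.6% of all genes were called lower. The median member difference was -0.186 on the log2 scale against 0.00216 over all genes. The 3 comparisons with siControl share the same 6 siControl libraries.

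ZFAS1 and SNHG8 had the widest differences in siIGF2BP1. ZFAS1 measured 17.3 and 20.2 CPM (TMM-scaled) at 0 h in siIGF2BP1 against 19.7 and 20.9 in siControl, 6.31 and 6.28 against 8.603 and 8.124 at 3 h, and 6.94 and 8.08 against 8.80 and 11.1 at 6 h. The groups overlapped at 0 h and were separate at 3 and 6 h, and the averaged level was 80.7% of siControl (log2 -0.31, SE 0.0646, adjusted p = 0.000157). SNHG8 measured 15.6 and 15.4 CPM against 16.9 and 17.4 at 0 h, 10.9 and 10.9 against 12.7 and 13.5 at 3 h, and 13.5 and 12.5 against 18.0 and 18.3 at 6 h. All siIGF2BP1 libraries lay below siControl at each time, at 81.3% on average (log2 -0.30, SE 0.0498, adjusted p = 5.59e-06).

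GAS5 (86.2% of siControl, adjusted p = 2.4e-05), SNHG3 (86.5%, 0.00836), SNHG16 (87.9%, 6.22e-08), SNHG1 (88.2%, 0.000141), SNHG6 (88.6%, 4.19e-06) and SNHG5 (91.0%, 0.0025) were also lower. SNHG12 was at 93.6% with an interval of -0.33 to 0.14 on the log2 scale and did not pass (adjusted p = 0.518). At single time points, siIGF2BP1 and siControl libraries did not overlap for 7 of 9 members at 0 h, 8 at 3 h and 7 at 6 h, and the siIGF2BP1 libraries were the lower ones in each case, as they were for 25.7%, 29.6% and 27.8% of all genes. At 0 h alone 0 members passed the edgeR test, against 15.6% of genes called in either direction. At an unadjusted p under 0.05 there were 3 members, against 26.2% of genes, and DESeq2 called 0 members and 17.2% of genes. With ERCC scaling, 4 members were called lower on average, against 7.7% of genes, and they were GAS5, ZFAS1, SNHG8 and SNHG16. The call for SNHG3 was lost without siIGF2BP1 6 h replicate 2 (-0.145, adjusted p = 0.0891).

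In siIGF2BP2 the member median on the log2 scale was 0.0665 at 0 h and 0.0578 on average, against 0.000473 and 0.00257 over all genes. The clear difference was in SNHG16, which was lower. Its TMM-scaled level was 112 and 110 CPM at 0 h against 131 and 134 in siControl, 102 and 94.3 against 144 and 136 at 3 h, and 108 and 110 against 161 and 160 at 6 h. Every siIGF2BP2 library was below every siControl library of the same time. The averaged level was 73.7% of siControl (log2 -0.44, SE 0.0244, adjusted p = 7.81e-18). It was already lower at 0 h (83.7%, log2 -0.26, adjusted p = 1.84e-05), where 11.0% of all genes were called in either direction and SNHG16 was the only member called. The 0 h call was lost with ERCC scaling (-0.16, adjusted p = 0.278). SNHG5 was the other member called on average, at 107% of siControl (log2 0.10, SE 0.0356, adjusted p = 0.0216), which makes 2 of 9 members beside 33.2% of all genes. That call was lost, leaving 1 member, in 6 of the 24 choices with 1 library left out, namely replicate 1 of siControl at 0, 3 or 6 h, replicate 2 of siIGF2BP2 at 0 or 6 h, and replicate 1 of siIGF2BP2 at 3 h.

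In siIGF2BP3 the differences were small, with a member median of -0.0158 on the log2 scale, and the 3 called were higher. SNHG3 (113% of siControl, log2 0.18, SE 0.0622, adjusted p = 0.0229), SNHG1 (108%, 0.12, SE 0.037, adjusted p = 0.0138) and SNHG5 (108%, 0.11, SE 0.036, adjusted p = 0.0171) were higher on average, 3 of 9 members beside 32.0% of all genes called. SNHG12 was at 0.14 (adjusted p = 0.34), and the other 5 had values below 0, the lowest being SNHG8 (-0.10, adjusted p = 0.107) and SNHG16 (-0.06, adjusted p = 0.0531). Libraries did not overlap those of siControl for 5 members at 0 h, all higher (25.2% of all genes). At 3 h they did not overlap for 2 higher and 3 lower members (25.4% and 26.5% of all genes), and at 6 h again for 2 and 3 (23.4% and 26.5%). SNHG3 was separate from siControl at 3 h (9.101 and 9.001 CPM against 8.07 and 7.19) and 6 h (5.98 and 5.66 against 5.08 and 4.60). At 0 h its libraries (31.1 and 30.1 CPM) overlapped those of siControl (30.3 and 30.0). SNHG5 was the only member called at 0 h (66.8 and 75.3 CPM against 58.9 and 62.8, log2 0.22, adjusted p = 0.0166), where 8.98% of all genes were called. Each of these calls was lost without 1 or another library. SNHG5 at 0 h was not called without siControl 0 h replicate 1 (0.18, adjusted p = 0.236) or without siIGF2BP3 0 h replicate 2 (0.14, adjusted p = 0.394), and without siControl 0 h replicate 1 only 1 member was called on average.

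**Figure D4:**
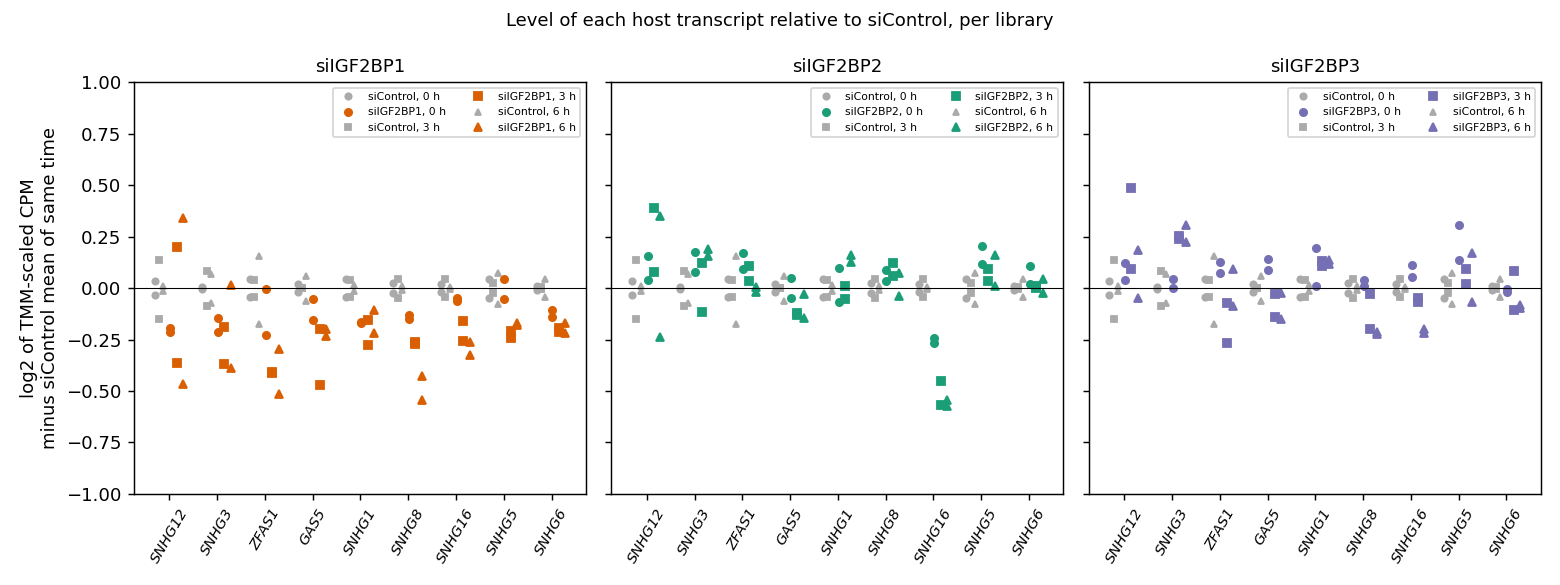
Log2 of the TMM-scaled CPM of each library minus the log2 of the siControl mean of the same time point (y axis) for the 9 host transcripts (x axis), with one panel per knockdown; grey marks are siControl libraries, coloured marks are knockdown libraries, and the shape gives the time point. In siIGF2BP1 nearly all marks other than those of SNHG12 lie below 0, and in siIGF2BP2 the SNHG16 libraries lie between -0.24 and -0.57.

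The direction of some of these level differences depended on the scale. With ERCC scaling, the median of all genes moved to 0.0626 in siIGF2BP1, 0.147 in siIGF2BP2 and 0.182 in siIGF2BP3 on the log2 scale, from about 0 with TMM. On that scale 7 members were called higher and SNHG16 lower in siIGF2BP2, against 44.2% of genes higher and 3.86% lower. In siIGF2BP3 7 were called higher, against 52.9% of genes, and GAS5 (0.16), SNHG6 (0.15) and SNHG16 (0.12) turned from values below 0 to calls above 0. SNHG16 in siIGF2BP2 (-0.30, adjusted p = 2.94e-08) and the 4 members named above in siIGF2BP1 kept their direction and call on both scales. So did the higher calls of SNHG5 in siIGF2BP2 (0.25) and of SNHG5 (0.295), SNHG3 (0.361) and SNHG1 (0.301) in siIGF2BP3. With TMM scaling those higher calls were lost without some single libraries.

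The knockdowns also differed from one another. Compared with siIGF2BP1, 7 members were higher and SNHG16 was lower in siIGF2BP2 (42.8% of all genes called in either direction), and 8 were higher in siIGF2BP3 (37.7%). In siIGF2BP2 minus siIGF2BP1 the log2 difference was 0.38 for ZFAS1, 0.36 for SNHG8, 0.31 for SNHG3 and -0.25 for SNHG16. In siIGF2BP3 minus siIGF2BP1 it was 0.39 for SNHG3, 0.30 for SNHG1 and 0.29 for ZFAS1. SNHG12 did not pass in either (adjusted p of 0.0548 and 0.0878). Between siIGF2BP3 and siIGF2BP2, SNHG16 was 0.38 higher (SE 0.0247, adjusted p = 1.33e-15) and SNHG8 0.16 lower (SE 0.049, adjusted p = 0.01) in siIGF2BP3, 2 of 9 members beside 30.0% of all genes. The call for SNHG8 was lost without siIGF2BP3 3 h replicate 1 (-0.132, adjusted p = 0.0588).

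Other snoRNA hosts give the setting for these values. Over all genes 80.3% fell in siControl, 25.5% were called as lost faster early than late, and 18.6% were lower in siIGF2BP1 on average. Of 21 other noncoding hosts 14 could be tested, and 12 of them fell in siControl (median -1.09 on the log2 scale over 6 h, median half-lifetime 4.4 h), with SNHG7 (-2.96) and SNHG17 (-2.85) showing the widest falls at a mean CPM of at least 5. Their loss was faster early than late in 8 of 14, and in siIGF2BP1 7 of 14 were lower on average (median -0.212), among them SNHG7 (-0.47) and SNHG14 (-0.44). The 24 ribosomal protein mRNAs that host snoRNAs behaved differently after actinomycin D: 0 fell in siControl (median 0.0325) and 23 of 24 showed no fall in the half-lifetime equation. SNHG5 and SNHG6 lay nearer to these mRNAs than to the remaining members in the amount left at 6 h. In siIGF2BP1 18 of the 24 were lower on average, including RPL23 (-0.16) and RPL13A (-0.14), but with a median of -0.0937. In siIGF2BP2 5 of the 24 were lower on average (median -0.0279), beside 2272 of 13136 genes. In siIGF2BP3 17 of the 24 were lower (median -0.0594), beside 2167 genes, so lower levels of these mRNAs were not particular to siIGF2BP1. Of 28 other protein-coding hosts tested, 24 fell in siControl, with a median half-lifetime of 9.94 h.

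The machinery around the host transcripts was also examined. The shares over all genes were 80.3% for a fall in siControl and 25.5% for faster loss early than late. In siIGF2BP1 2745 of 13136 genes were higher on average and 2440 lower. All 17 mRNAs tested from a list of known NMD targets fell in siControl, with a median of -1.27 beside -1.22 for the members. CDKN1A (-3.12) and GADD45A (-2.91) had the widest falls among those at a mean CPM of at least 5. Faster loss early than late was called in 9 of 17, but with a median difference of 0.192 against 0.987 for the members. From 3 to 6 h in siControl 15 of 17 fell (median -0.616), against 4 of 9 members (median -0.17) and 64.9% of all genes. Of 15 NMD factors, all fell in siControl, 8 fell faster early than late, and in siIGF2BP1 4 were higher and 3 lower on average. PNRC2, a decapping cofactor, was higher in each knockdown (0.34, 0.41 and 0.28), and SMG1, the kinase that phosphorylates UPF1, was higher in siIGF2BP1 (0.13) and siIGF2BP2 (0.10). Of 16 snoRNP assembly factors and core proteins, 12 fell in siControl and 3 rose and 3 fell in siIGF2BP1, where ZNHIT6 was at -0.33 and NUFIP1 at 0.23.

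Over the 12 groups, 5 genes outside the list followed the median profile of the members most closely. By the root mean square difference of centred log2 ERCC-scaled group means, out of 9745 genes, they were EIF4A2 (0.0672), UNK (0.0856), MAP3K13 (0.112), PRDM4 (0.115) and EPB41L4A-AS1 (0.119). EIF4A2 and EPB41L4A-AS1 are themselves annotated snoRNA hosts in the lists used here. Among the members, SNHG1 lay closest to the median profile (0.102) and SNHG12 farthest from it (1.25).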

How the data were processed

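Poly(A)-enriched, stranded RNA-seq libraries were measured for 24 samples. Per the labels and the study's methods, the authors added ERCC RNA to total RNA, trimmed single-end reads (Trimmomatic 0.39), aligned them to hg38 (HISAT2 2.1.0) and used HTSeq with GENCODE gene models for counting. Raw read counts were deposited. Multi-mapping and overlap settings are not given in the sources used here. Summary rows that name no gene (13.551% to 17.064% of each library) and the 45 Y-copy rows of pseudoautosomal genes were not used. Symbols were matched by Ensembl identifier for 58207 rows, and 469 had none. METTL1 libraries were not analysed here.

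From the counts, 13136 genes that reached 1 CPM (counts scaled to the total of gene reads) in 2 or more libraries were tested by edgeR's quasi-likelihood test (edgeR 4.0.16, R 4.3.3; two-sided, Benjamini-Hochberg adjusted over all of them, threshold 0.05). Levels used 12 group means with TMM scaling (12 residual degrees of freedom). Decay used a slope on time per condition (8 terms, 16 residual degrees of freedom) and early and late changes used group means, both scaled to the sum of ERCC reads. First-order rates from 0 to 3 h and from 0 to 6 h, computed on ERCC-scaled group means, were averaged to K, and half-lifetime was ln2/K. SE came from the effect and its F statistic, and intervals are 95% t intervals. ERCC RNA was added after extraction and cannot correct for cell number or recovery. Replicates of each group differed by more than sampling noise. The fits were checked on simulated counts. Alternatives were other scalings, DESeq2 1.42.0, no filter or a CPM of at least 5, the groups compared alone, a replicate block, and each library left out in turn.

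The members and gene lists were chosen with earlier results of these data known. All members are named, as are at most 2 genes per other list and comparison (those with the widest called change at a mean CPM of at least 5), the siRNA targets, and the 5 nearest profiles. Sequences are from RefSeq (GRCh38.p14) and the hg38 genome, and positions from GENCODE v44.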

Additional observations from a re-analysis of the deposited data

Results flagged for a closer look

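Direct comparison of the knockdowns singled out 18 differences in time-averaged, TMM-scaled level that passed the edgeR test of the difference itself. In siIGF2BP2 minus siIGF2BP1 the log2 differences were 0.375 for ZFAS1, 0.356 for SNHG8, 0.311 for SNHG3, 0.239 for SNHG5, 0.228 for SNHG1, 0.202 for SNHG6, 0.144 for GAS5 and -0.254 for SNHG16. In siIGF2BP3 minus siIGF2BP1 they were 0.39 for SNHG3, 0.297 for SNHG1, 0.293 for ZFAS1, 0.246 for SNHG5, 0.196 for GAS5, 0.194 for SNHG8, 0.137 for SNHG6 and 0.125 for SNHG16. In siIGF2BP3 minus siIGF2BP2 they were 0.379 for SNHG16 and -0.162 for SNHG8. SNHG16 therefore had its lowest averaged level in siIGF2BP2, whereas the other members called had their lowest in siIGF2BP1.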

How the results depend on the processing

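With 2 libraries per group, small differences could not be detected, and the straight line fitted over time gave wide intervals for transcripts whose loss slowed after 3 h. A 6 h course sets long half-lifetimes poorly, and ERCC RNA, added after extraction, carries its own error into every decay value. Values were counted for the tested members, and for each siRNA target in its own knockdown. Those past the threshold stayed past it in the same direction in 1968 values and were lost in 48 with 1 library left out, with 0 reversed. Every library was left out for every comparison. Many of these fits therefore kept all libraries of the groups compared and tested a call only weakly. Under the other alternatives 684 stayed, 27 were lost and 8 reversed, and of the values not past the threshold 35 came to pass in the same direction and 22 in the opposite one. Values that changed sign but were past the threshold in neither fit (43 under other alternatives and 79 with 1 library left out) are not counted as reversed.

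The number of members called at 0 h in siIGF2BP1 was 0 as reported, beside 2053 of 13136 genes. It was 2 with library-size scaling (2043 genes called), 1 with a CPM of at least 5 (2118 of 10492) and 4 with only the groups compared (2812). With 1 library left out it ranged from 0 to 1 (1 without either siIGF2BP3 library of 0 h or of 3 h), beside 1210 to 2196 genes. In siIGF2BP2 at 0 h it was 0 with ERCC scaling (732 genes called), 2 with no filter (1268 of 33509) and 2 with only the groups compared (2351). It was 1 to 2 with 1 library left out (2 without either siIGF2BP3 library of 6 h), beside 781 to 1595 genes. In siIGF2BP3 at 0 h it ranged from 0 to 1, beside 609 to 1296 genes called with 1 library left out. For averaged levels, ERCC scaling gave 4 members called in siIGF2BP1, 8 in siIGF2BP2, 7 in siIGF2BP3 and 1 in siIGF2BP3 minus siIGF2BP2. The genes called there were 4084, 6307, 7203 and 2384. Leaving out 1 library gave 1 to 2 members in siIGF2BP2 (3892 to 4510 genes) and 1 to 4 in siIGF2BP3 (3754 to 4214). It gave 1 to 3 in siIGF2BP3 minus siIGF2BP2 (3446 to 4083). The cause of these shifts was not tested.

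The replicate block changed few calls. Deviations of libraries with the same number correlated between -0.0596 and 0.2409 over 66 pairs of groups (median 0.00485, over 0.1 in 6), so the numbers were not taken to pair the libraries, although the 3 pairs of times within siIGF2BP3 gave 0.1465 to 0.176. With the replicate block, 1 member was called at 0 h in siIGF2BP1 (SNHG1, -0.17), beside 2133 genes, and 2 in siIGF2BP2 (SNHG5 in addition, 0.16), beside 1540. In the same fit SNHG16 was called lower in siIGF2BP3 on average (-0.06), and no other member call for level changed.

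The median half-lifetime of the members in siControl, siIGF2BP1, siIGF2BP2 and siIGF2BP3 was 4.91, 5.91, 6.62 and 6.16 h from the fitted slope, 4.92, 5.94, 6.64 and 6.18 h from 0 and 6 h alone, and 10.7, 9.39, 11.1 and 10.0 h with TMM scaling. In siIGF2BP1 it ranged from 4.19 to 4.48 h with 1 library left out.

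Scaling to gene reads sets decay relative to the average transcript, and reversed slow members. Over 6 h on the log2 scale, SNHG5 became 0.34, 0.20, 0.30 and 0.20 in siControl, siIGF2BP1, siIGF2BP2 and siIGF2BP3 with library-size scaling and 0.66, 0.49, 0.59 and 0.49 with TMM. SNHG6 in siControl became 0.48 and 0.80. With TMM, SNHG8 became 0.081 in siControl and 0.041 in siIGF2BP2, and SNHG16 became 0.27 in siControl and 0.033 in siIGF2BP1. From 0 to 3 h in siControl, SNHG5 became 0.16 and SNHG6 0.19 with library-size scaling, and SNHG5 0.38, SNHG6 0.40 and SNHG16 0.076 with TMM. From 3 to 6 h, SNHG5 became 0.17, SNHG6 0.29 and SNHG16 0.085 with library-size scaling, and GAS5 0.24, SNHG1 0.044, SNHG5 0.28, SNHG6 0.41 and SNHG16 0.20 with TMM. For averaged levels in siIGF2BP3, ERCC scaling reversed GAS5 (0.16), SNHG6 (0.15) and SNHG16 (0.12).

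Counts over all genes moved by more than 1.5 times in some fits. At 0 h, ERCC scaling left 649 genes called in siIGF2BP1 instead of 2053, 732 in siIGF2BP2 instead of 1451 and 471 in siIGF2BP3 instead of 1180. It gave 7203 instead of 4204 in siIGF2BP3 on average, and 2384 instead of 3936 in siIGF2BP3 minus siIGF2BP2, and only the groups compared gave 2351 at 0 h in siIGF2BP2. Averaged calls in siIGF2BP1 were 2745 higher and 2440 lower with TMM against 3073 and 1011 with ERCC scaling, those in siIGF2BP2 were 2091 and 2272 against 5800 and 507, and those in siIGF2BP3 were 2037 and 2167 against 6946 and 257. Late minus early change was called in 6321 genes with library-size scaling and 7463 with TMM instead of 3923. Decay differences in siIGF2BP1, siIGF2BP2 and siIGF2BP3 were called in 2, 0 and 3 genes as reported, in 8, 6 and 25 with DESeq2, in 9, 22 and 12 with no filter, in 86, 72 and 195 from 0 and 6 h alone, and in 0, 0 and 0 with only the groups compared. No member was among them in any of these fits.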
